A study of Mus musculus with 12 samples.

Results

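The potassium channel genes of mouse, whose symbols start with Kcn, were examined in mouse embryonic fibroblasts (MEFs) with and without a mutation of the transcription factor E2F1. Members were all protein-coding genes of the GENCODE M21 annotation with such a symbol, matched to the count files by Ensembl gene identifier. Of 94 such genes, 93 were among the 37991 gene identifiers in the files, and Kcnj11 was not analysed here. Counts were found in at least 3 samples for 82 members, in 1 or 2 samples for 6 and in no sample for 5 (Kcna10, Kcne1, Kcng4, Kcnk16 and Kcnmb3). The filter on low counts, which was set on all genes, left 54 members, and these were tested among 15327 genes.

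The cells were primary MEFs at passage 3 from 13.5-day embryos of the FVB strain, either wild-type or homozygous for E2f1 3KR, a knock-in allele in which the 3 lysines that are acetylated in E2F1 are replaced by arginine. Both genotypes were left untreated or were given neocarzinostatin (NCS), a drug that breaks both strands of DNA, at 250 ng/ml for 3 h. Each of the 4 groups had 3 samples, and RNA was sequenced from stranded mRNA libraries. The wild-type mice were purchased and the knock-in line was bred in house. The study describes its replicates as independent experiments on cells or mice. Whether the samples of a group came from separate embryos or cultures is not given in the sources used here, so p-values measure only the spread between these samples.

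Potassium channels let potassium ions leave or enter cells along their gradient and so set the resting membrane potential. Voltage-gated (Kv) channels are tetramers of pore subunits of the Kv1 to Kv12 families, and accessory subunits alter their gating and transport to the surface. Inward rectifiers (Kir) hold the membrane near the potassium equilibrium, tandem pore domain channels (K2P) carry leak currents, and other families open on intracellular calcium or sodium. In fibroblasts, potassium channels are known to act in volume control, proliferation and migration, whereas many Kv subunits are best known from neurons, muscle and glia.

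The total count per sample lay between 33203757 and 45279321, so that 3 counts equalled 0.0663 to 0.0904 CPM, the usual unit of counts scaled to library size. E2f1 itself had 1042 to 1296 normalized counts in untreated wild-type MEFs and 1111 to 1128 in untreated 3KR MEFs, which does not check the labels because codon changes leave the gene counted as before. Wild-type sample 3 differed from the other wild-type samples in both treatments (chi-square per gene of 7.34 to 9.14, against 2.02 to 2.29 for all other pairs within groups). Xist, the RNA of the inactive X chromosome, had 30590 to 35630 normalized counts in the 3KR samples and 32.3 to 62.5 in the wild-type samples, and Y-linked Ddx3y had 16.2 or fewer and 5370 to 5822, so that sex and genotype cannot be told apart here. Cdkn1a, a p53 target used here only as a check on the treatment, rose by 1.18 log2 after NCS in wild-type MEFs (adjusted p = 1.32e-18) and by 1.34 in 3KR MEFs (adjusted p = 1.02e-19).

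Levels were compared between genes as CPM per kb of exon, averaged over the 12 samples. The highest were those of Kcne4, an accessory subunit that inhibits Kv1 channels, at 4.51 CPM per kb, and Kcnj15, the inward rectifier Kir4.2, at 4.12. Next came the K2P channels Kcnk6 (TWIK-2, 3.74) and Kcnk2 (TREK-1, which opens on membrane stretch, 2.66), the Kv4 pore subunit Kcnd1 (2.48) and the calcium-binding Kv4 partner Kcnip3 (1.62). The lowest tested member, the Kv2 subunit Kcnb2, had 0.0141 CPM per kb.

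The summed level of all members lay between 38.7 and 41.5 CPM per kb in every sample, while the shares of the families that made it up differed between genotypes. In wild-type MEFs it was 39.0 ± 0.428 CPM per kb without and 39.6 ± 1.41 with NCS (SD, n = 3). In 3KR MEFs it was 40.5 ± 0.740 without and 41.0 ± 0.394 with NCS. Kv1 pore subunits made up 13.5% to 13.9% of the sum in untreated wild-type samples and 3.07% to 3.68% in untreated 3KR samples. The share of Kv accessory subunits was 17.4% to 19% against 29.9% to 31.1%, and that of inward rectifiers was 11.3% to 12.8% against 15.7% to 18.2%. For all 3 families the samples of the genotypes did not overlap, in untreated and in NCS-treated MEFs alike. K2P channels held 23.1% to 25.8% in untreated wild-type and 20.5% to 22.4% in untreated 3KR samples, and overlapped after NCS (22.8% to 25.5% and 23.5% to 24.7%).

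**Figure D1:**
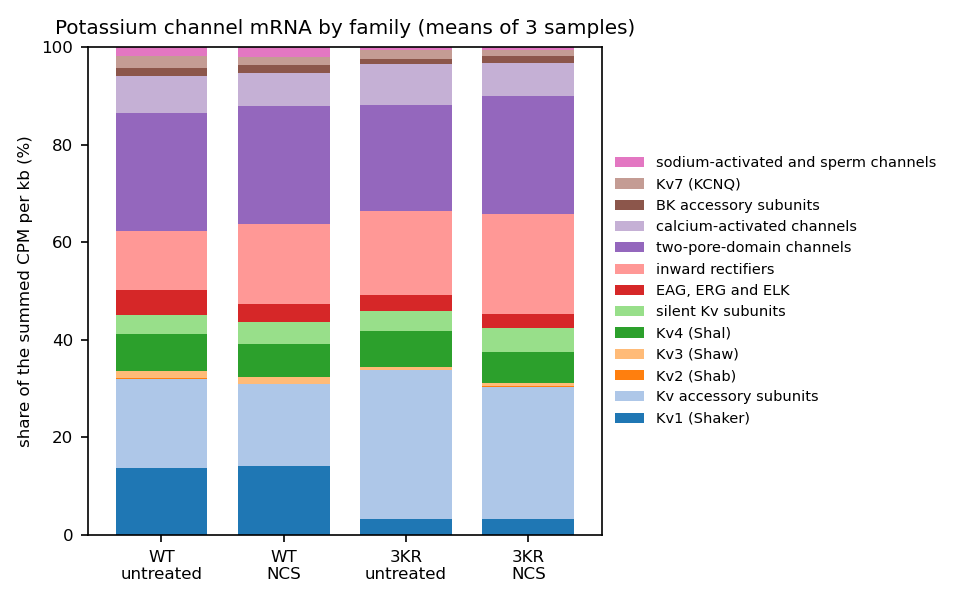
Share of the summed CPM per kb of exon of all potassium channel genes held by each family (%, stacked bars, means of 3 samples) in the 4 groups. The Kv1 share was 13.7% and 14.2% in wild-type MEFs and 3.29% and 3.21% in 3KR MEFs, without and with NCS, and that of the Kv accessory subunits was 18.3% and 16.7% against 30.5% and 27.2%.

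To see which potassium channel genes differed with the E2F1 mutation, 3KR and wild-type MEFs were compared without and after NCS with the quasi-likelihood test of edgeR, and genes were called at a Benjamini-Hochberg adjusted p under 0.05 over all tested genes. Without treatment, 8 of 54 tested members were higher and 22 were lower in 3KR MEFs. Of all tested genes, 45.7% were called in this comparison, 22.1% higher and 23.6% lower, so lower calls made up 40.7% of the tested members. After NCS, 9 members were higher and 17 were lower, against 46.5% of all tested genes called, 22.9% higher and 23.6% lower. Changes of at least 1 log2 were more one-sided. They comprised 3 members higher and 11 lower without treatment, where 4.36% and 4.23% of all tested genes were that much higher and lower, and 4 higher and 13 lower after NCS, where 3.88% and 4.07% were. The median log2 fold change of the tested members was -0.36 without treatment and -0.34 after NCS, beside 0.00 for all tested genes in both. Without wild-type sample 3 in both treatments, 9 members were higher and 22 lower without NCS, and 10 and 16 with it. Of the calls without and after NCS, 7 higher members were shared (87.5% of the former and 77.8% of the latter), as were 17 lower ones (77.3% and 100%). The shared part over all tested genes is not given here, so this sharing is not shown to be particular to the members.

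**Figure D2:**
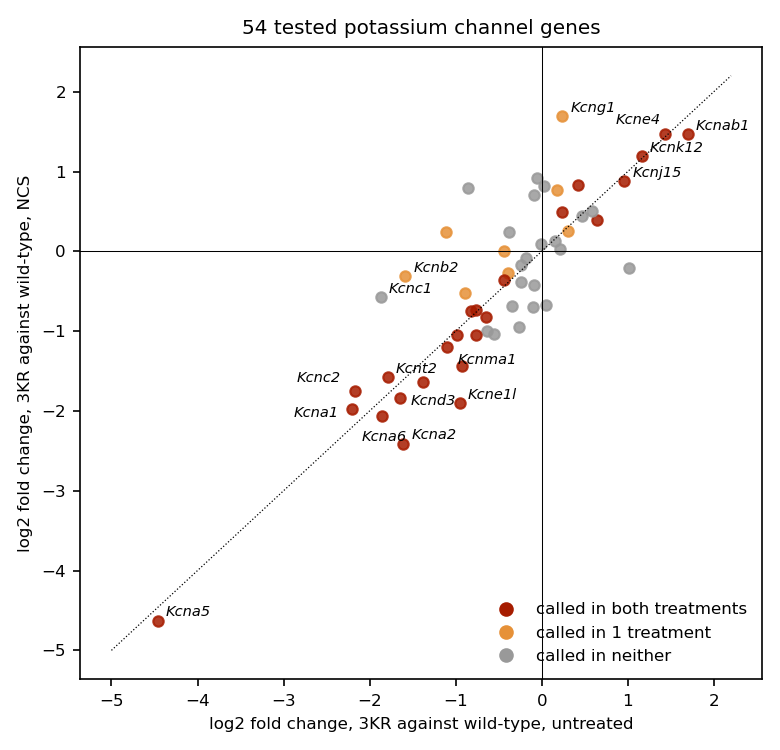
Log2 fold change between genotypes (positive where higher in 3KR) of the 54 tested potassium channel genes, untreated (x axis) and after NCS (y axis), coloured by whether they were called in both, 1 or neither treatment; the dotted line marks equal change. The 24 members called in both changed in the same direction in both treatments, and Kcna5 stands furthest out at -4.46 and -4.63.

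Markers of fibroblasts and of other cells differed between genotypes, beside 45.7% of all tested genes called in untreated MEFs, 22.1% higher and 23.6% lower. The few calls in the skeletal muscle and endothelial lists are not set apart from these shares. Fibroblast markers were high in every sample, with summed normalized counts of 1773000 to 1904000 in wild-type and 2087000 to 2175000 in 3KR samples. Of 10 such markers, 9 were higher and 1 lower in untreated 3KR MEFs, with a median log2 fold change of 0.33. Of 10 Schwann cell and neural crest markers, 7 were lower in untreated 3KR MEFs and none higher, with a median log2 fold change of -2.15 and summed normalized counts of 6533 to 6949 in wild-type and 1376 to 1577 in 3KR samples. None of them was at 0 in all samples, and Sox10 had 1369 to 1556 and 215 to 274. Of 5 tested neuron markers 3 were lower (sums of 4533 to 5423 and 2263 to 2572), of 10 smooth muscle and pericyte markers 7 were lower and 3 higher (298300 to 314100 and 240200 to 261400), and of 4 tested skeletal muscle markers 2 were lower (814.1 to 960.3 and 547 to 705.1). The neuron sum was almost all Stmn2, Tubb3 and Gap43 (means of 2089, 1567 and 1144 in untreated wild-type samples). There, Snap25, Syt1, Elavl4 and Syp had 7.49 to 11.5, and Elavl3, Rbfox3 and Dcx 0 to 0.683. The skeletal muscle sum was mostly Acta1 (694) and Chrna1 (134), with Myod1 at 5.05 and Ckm at 0. These sums do not show that neurons or muscle cells were present. Of 10 macrophage markers all 10 were higher (4115 to 5250 and 7137 to 7971), and of 8 tested endothelial markers 1 was higher and 2 lower (4056 to 4433 and 6922 to 7309). The endothelial sum was mostly Flt1 (3589 and 6768 in untreated samples, means), whereas Emcn (50.4 and 9.21) and Esam (176 and 32.4) were the lower ones. Fewer cells of a type and less RNA per cell cannot be told apart in these bulk samples, and the part of these cells in the differences of the potassium channel genes, several of which are known from glia, neurons and muscle, was not tested.

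The Kv1 pore subunits Kcna1, Kcna5 and Kcna6 are encoded next to each other on chromosome 6, and all 3 were lower in 3KR MEFs. Kcna1 encodes Kv1.1, a delayed rectifier of axons. Its normalized counts were 406, 409.9 and 379 in the untreated wild-type samples and 86.7, 88.4 and 85.5 in the untreated 3KR samples. After NCS they were 402, 480.3 and 525 against 129.6, 113 and 116. The groups stood far apart in both treatments, and the log2 fold change was -2.20 ± 0.11 (SE, adjusted p = 6.29e-14) without and -1.97 ± 0.11 (adjusted p = 2.26e-13) after NCS.

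Kcna5 encodes Kv1.5, known from atrial muscle, smooth muscle and immune cells. It had 143, 116 and 159 normalized counts in untreated wild-type and 2.02, 11.4 and 5.46 in untreated 3KR samples, and 147, 130.0 and 127 against 6.08, 1.17 and 8.27 after NCS. Every 3KR sample was more than 10 times below every wild-type sample of its treatment, with a log2 fold change of -4.46 ± 0.30 (adjusted p = 1.63e-11) without treatment, 22.1-fold, and of -4.63 ± 0.32 (adjusted p = 2.92e-11) after NCS. Kcna6 encodes Kv1.6. It had 301, 359 and 364 normalized counts in untreated wild-type and 86.7, 89.4 and 106 in untreated 3KR samples. Its log2 fold change was -1.85 ± 0.13 (adjusted p = 4.81e-11) without and -2.06 ± 0.14 (adjusted p = 1.87e-11) after NCS. The annotation puts 39.6% of the exon bases of Kcna6 opposite exons of a non-coding gene, and whether counting used the strand is not given in the sources used here, so reads of both may be counted together.

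The genes on either side of this cluster were looked at after its values were seen. Ntf3, the neurotrophin-3 gene and the nearest protein-coding gene before Kcna5, had 74.1 to 100.4 normalized counts in untreated wild-type and 19.8 to 36.4 in untreated 3KR samples, and was lower by -1.48 ± 0.22 log2 (adjusted p = 5.13e-06). Ndufa9, a subunit of respiratory complex I and the nearest after Kcna6, had 2381 to 2795 and 2622 to 2768, with groups that overlapped and a log2 fold change of 0.02 ± 0.05 (adjusted p = 0.816). The next genes outward, Ano2 and Akap3, did not pass the filter.

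Upstream sequences are shown for the cluster members that RefSeq gives a start for and for a member that was higher in 3KR MEFs, since E2F1 acts at promoters. Each is the 250 bases before the RefSeq start on GRCm38.p6, the C57BL/6J assembly and not FVB, written 5′ to 3′ on the strand of the gene. Capitals mark a match to an E2F motif (TTTCCCGC, TTTCGCGC, TTTGCCGC or TTTGGCGC) or to the p53 half-site motif of 10 letters, on either strand. A p53 match here and below is to this half-site alone and not to a full p53 site.
Kcna5, chr6:126535556-126535805, minus strand: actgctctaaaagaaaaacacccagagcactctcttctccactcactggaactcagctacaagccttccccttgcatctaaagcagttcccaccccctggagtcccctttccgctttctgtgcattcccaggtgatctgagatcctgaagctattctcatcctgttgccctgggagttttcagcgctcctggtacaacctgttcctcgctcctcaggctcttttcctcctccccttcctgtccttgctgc
Kcna6, chr6:126740675-126740924, minus strand: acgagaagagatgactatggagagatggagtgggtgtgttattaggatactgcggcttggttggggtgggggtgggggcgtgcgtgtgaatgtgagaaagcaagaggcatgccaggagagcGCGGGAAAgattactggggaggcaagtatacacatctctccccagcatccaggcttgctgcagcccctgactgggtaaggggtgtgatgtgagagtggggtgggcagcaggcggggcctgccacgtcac
Kcnab1, chr3:64948962-64949211, plus strand: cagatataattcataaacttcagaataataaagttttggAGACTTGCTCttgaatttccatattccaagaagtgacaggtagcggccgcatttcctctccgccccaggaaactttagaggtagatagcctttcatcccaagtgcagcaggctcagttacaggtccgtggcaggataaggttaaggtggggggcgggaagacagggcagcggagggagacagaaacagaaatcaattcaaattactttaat
The window of Kcna6 held 1 E2F match, the reverse complement of TTTCCCGC, whose first base lies at -129 from the start, and that of Kcna5 held none. The first of 3 Kcnab1 windows held 1 p53 match, at -211. RefSeq windows were found for 69 of 93 members, of which 3 (4.3%) held an E2F match (Kcna3, Kcna6 and Kcnh5) and 4 (5.8%) a p53 match (Kcnab1, Kcnab2, Kcnip4 and Kcnn1), beside 2.2% and 8.2% of 27025 genes with a window of this length. Of 22 members lower in untreated 3KR MEFs, 19 had a window, of which 1 held an E2F match and 0 a p53 match. Of 8 higher members, 7 had a window, of which 0 held an E2F match and 3 a p53 match.

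Among the other Kv1 subunits, Kcna2, which encodes Kv1.2 and pairs with Kv1.1 in axons, was also lower. Its normalized counts were 34.0, 21.3 and 27.9 in untreated wild-type and 5.04, 7.28 and 14.6 in untreated 3KR samples, a log2 fold change of -1.61 ± 0.45 (adjusted p = 0.00511), and the change after NCS was -2.41 ± 0.47 (adjusted p = 0.000182). The remaining tested Kv1 members, Kcna3 and Kcna4, had log2 fold changes of 1.02 (adjusted p = 0.0529) and -0.34 (adjusted p = 0.584) without treatment. Kcna7 did not pass the filter.

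In the Kv3 and Kv4 families, 2 of 3 tested pore subunits each were lower and none higher, in both treatments, beside 23.6% of all tested genes lower in each. The Kv3 member that was not called, Kcnc1, had log2 fold changes of -1.87 (adjusted p = 0.0585) without and -0.57 (adjusted p = 0.353) after NCS. The former passed the threshold without wild-type sample 3 (adjusted p = 0.012). Kcnc2 encodes Kv3.2, a channel of fast-spiking neurons, and had 74.6, 82.2 and 73.5 normalized counts in untreated wild-type and 22.2, 14.6 and 14.6 in untreated 3KR samples. Its log2 fold change was -2.17 ± 0.25 (adjusted p = 1.22e-07) without and -1.75 ± 0.25 (adjusted p = 3.39e-06) after NCS. Kcnd2 and Kcnd3 encode Kv4.2 and Kv4.3, which carry fast transient currents in neurons and heart. Kcnd2 had 44.7, 49.7 and 63.1 normalized counts in untreated wild-type and 22.2, 19.8 and 18.2 in untreated 3KR samples (log2 fold change -1.39 ± 0.26, adjusted p = 9.56e-05). Kcnd3 had 58.0, 34.5 and 63.1 against 16.1, 10.4 and 22.7 (-1.64 ± 0.30, adjusted p = 8.8e-05). The groups of both genes did not overlap, and the changes after NCS were -1.64 and -1.84.

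The most abundant Kv4 subunit behaved otherwise. X-linked Kcnd1, which encodes Kv4.1, had 548, 482 and 469.9 normalized counts in untreated wild-type and 566, 554 and 555 in untreated 3KR samples, with log2 fold changes of 0.15 ± 0.08 (adjusted p = 0.113) without and 0.13 ± 0.08 (adjusted p = 0.17) after NCS. The former passed the threshold without wild-type sample 1 (0.23, adjusted p = 0.0291). Because Kcnd1 outweighs the others, the Kv4 share of the summed level was 7.15% to 8.17% in untreated wild-type and 7.1% to 7.47% in untreated 3KR samples. Of the Kv2 pair, Kcnb2 was lower without treatment (12.4, 18.3 and 17.6 against 6.05, 6.24 and 3.64 normalized counts, log2 fold change -1.58 ± 0.52, adjusted p = 0.0146). Its raw counts were 15, 18 and 17 in untreated wild-type samples and at most 9 elsewhere. It passed the filter only through that group, so the filter favours calls against that group. Its call was lost without 3KR sample 3 (adjusted p = 0.0723), and its change after NCS was -0.31 (adjusted p = 0.722).

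Kcnh2 and Kcnq5, pore subunits known for repolarizing currents, were lower by smaller margins. Kcnh2, the ERG channel of the heart, changed by -0.65 ± 0.14 log2 (adjusted p = 0.000742) without and -0.82 ± 0.16 (adjusted p = 0.000225) after NCS. Kcnq5, a subunit of the M current, changed by -0.43 ± 0.13 (adjusted p = 0.00628) and -0.36 ± 0.14 (adjusted p = 0.0378). The former call was lost without 3KR sample 1 (adjusted p = 0.0645), and the latter without any 1 of 5 samples (adjusted p of 0.0532 to 0.129). Kcnh1, of the same family as Kcnh2 and named after its values were seen, had log2 fold changes of -0.44 ± 0.13 without (adjusted p = 0.00888) and 0.00 ± 0.13 after NCS (adjusted p = 0.991). None of the 4 tested silent Kv subunits, which modify Kv2 channels and form no channel alone, was called without treatment. After NCS, Kcng1 was higher in 3KR MEFs, with 34.4, 15.2 and 30.0 normalized counts against 11.3, 5.53 and 7.96 (log2 fold change 1.70 ± 0.39, adjusted p = 0.000947).

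Of 8 tested Kv accessory subunits, 3 were higher and 2 lower without treatment, and 3 higher and 1 lower after NCS. Of all tested genes, 22.1% were higher and 23.6% lower without treatment, and 22.9% and 23.6% after NCS. Kcnab1 encodes Kvβ1, a cytoplasmic subunit that speeds the inactivation of Kv1 channels. It had 172, 196 and 169 normalized counts in untreated wild-type and 615, 518 and 609 in untreated 3KR samples, and 167, 149 and 167 against 498, 409.5 and 431 after NCS. Its log2 fold change was 1.70 ± 0.10 (adjusted p = 5.69e-13) without and 1.47 ± 0.10 (adjusted p = 2.4e-11) after NCS. Kcne4, the member with the highest level, had 215, 275 and 249 normalized counts in untreated wild-type and 650, 703 and 648 in untreated 3KR samples. Its change was 1.44 ± 0.09 (adjusted p = 4.29e-12) without and 1.47 ± 0.09 (adjusted p = 4.22e-12) after NCS. Both genes were higher in every 3KR sample than in any wild-type sample.

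Kcnab2, named after its values were seen, encodes Kvβ2 and was higher by 0.64 ± 0.11 log2 (adjusted p = 2.13e-05) without treatment and 0.39 ± 0.11 (adjusted p = 0.00434) after NCS. X-linked Kcne1l, also called Kcne5, was lower by -0.95 ± 0.35 (adjusted p = 0.0303) and -1.91 ± 0.39 (adjusted p = 0.000327). The former call was lost without any 1 of 4 samples, with adjusted p of 0.0626 to 0.143. Kcnip3 was lower without treatment (223, 259.7 and 283 against 194, 204 and 186 normalized counts, log2 fold change -0.39 ± 0.12, adjusted p = 0.00799), and its change after NCS was -0.28 (adjusted p = 0.063), which passed the threshold without wild-type NCS sample 2 (adjusted p = 0.0348) or 3KR NCS sample 2 (adjusted p = 0.0232).

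**Figure D3:**
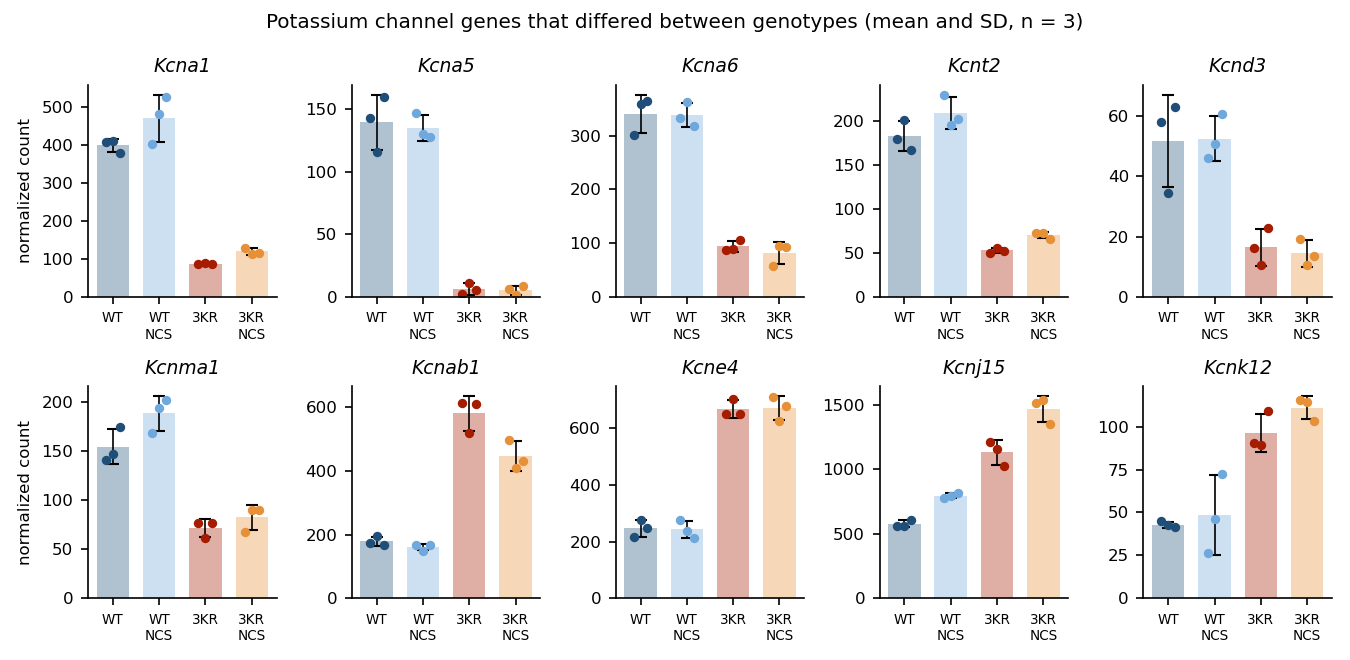
Normalized counts of 10 potassium channel genes by group (points are samples, bars are means and error bars SD, n = 3, each axis from 0). Kcna1, Kcna5, Kcna6, Kcnt2, Kcnd3 and Kcnma1 were lower and Kcnab1, Kcne4, Kcnj15 and Kcnk12 higher in all 3KR samples than in all wild-type samples of the same treatment.

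Of 6 tested inward rectifiers, 2 were higher and 2 lower in 3KR MEFs in both treatments. Such small counts are not set apart from the 22.1% higher and 23.6% lower among all tested genes without treatment. Kcnj15 had 564, 562 and 611 normalized counts in untreated wild-type and 1210, 1156 and 1025 in untreated 3KR samples, a log2 fold change of 0.96 ± 0.07 (adjusted p = 1.81e-11), and of 0.88 ± 0.06 (adjusted p = 3.99e-11) after NCS. Kcnj2, the strong rectifier Kir2.1, was higher by 0.42 ± 0.11 (adjusted p = 0.00283) and 0.83 ± 0.12 (adjusted p = 4.58e-06). Kcnj10 encodes Kir4.1, which buffers potassium in glia. It had 119, 55.8 and 99.3 normalized counts in untreated wild-type and 51.4, 55.1 and 40.9 in untreated 3KR samples, where wild-type sample 2 lay just above the highest 3KR sample. Its log2 fold change was -0.92 ± 0.22 (adjusted p = 0.00132) without and -1.43 ± 0.24 (adjusted p = 2.49e-05) after NCS. Kcnj4, which encodes Kir2.3, was lower by -0.98 ± 0.28 (adjusted p = 0.00599) and -1.05 ± 0.20 (adjusted p = 0.000109). The call without treatment was lost without wild-type sample 1 (adjusted p = 0.0535).

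Among 8 tested K2P channels, 2 were higher and 3 lower without treatment, and 3 higher and 2 lower after NCS. These counts are likewise not set apart from the shares of all tested genes (22.1% and 23.6%, 22.9% and 23.6%). Kcnk1, or TWIK-1, named after its values were seen, was lower without treatment (log2 fold change -0.89 ± 0.26, adjusted p = 0.00824), with a change of -0.52 after NCS (adjusted p = 0.125). Kcnk2 had 609, 575 and 608 normalized counts in untreated wild-type and 272, 397 and 353 in untreated 3KR samples, a log2 fold change of -0.82 ± 0.09 (adjusted p = 7.04e-08), and of -0.74 ± 0.09 (adjusted p = 2.46e-07) after NCS. Kcnk5, the acid-sensitive TASK-2, changed by -0.76 ± 0.14 (adjusted p = 9.81e-05) and -1.04 ± 0.15 (adjusted p = 2.59e-06). Kcnk12, or THIK-2, which gives little current by itself, had 44.7, 42.6 and 41.4 normalized counts in untreated wild-type and 90.7, 89.4 and 109 in untreated 3KR samples. Its log2 fold change was 1.16 ± 0.22 (adjusted p = 0.000144) without and 1.19 ± 0.22 (adjusted p = 8.47e-05) after NCS. Kcnk6 was higher by 0.24 ± 0.08 (adjusted p = 0.0207) without treatment, a call lost without any 1 of 3 samples (adjusted p of 0.075 to 0.138), and by 0.50 ± 0.08 (adjusted p = 1.66e-05) after NCS. The acid-sensitive TASK-1 gene Kcnk3 was called higher after NCS, by 0.77 ± 0.24 (adjusted p = 0.0107), a call lost without wild-type NCS sample 2 (adjusted p = 0.0845), and its change without treatment was 0.18 (adjusted p = 0.495).

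Of the channels that open on intracellular calcium or sodium, Kcnma1 and Kcnt2 were lower in 3KR MEFs in both treatments. Kcnma1 is the pore of the calcium- and voltage-activated BK channel. It had 142, 147 and 175 normalized counts in untreated wild-type and 76.6, 61.4 and 77.3 in untreated 3KR samples, with log2 fold changes of -1.10 ± 0.15 (adjusted p = 1.48e-06) without and -1.20 ± 0.14 (adjusted p = 3.06e-07) after NCS. Kcnmb4, its neuronal accessory subunit, was lower without treatment by -1.11 ± 0.41 (adjusted p = 0.0303), on 29.8, 21.3 and 20.7 against 15.1, 13.5 and 5.46 normalized counts. This call was lost without wild-type sample 1 (adjusted p = 0.136) or 3KR sample 3 (adjusted p = 0.175). After NCS the log2 fold change of Kcnmb4 was 0.24 (adjusted p = 0.666). Of its exon bases, 31.5% lie opposite exons of another gene. Kcnt2, or Slick, opens on intracellular sodium. It had 179.8, 202 and 168 normalized counts in untreated wild-type and 50.4, 56.2 and 52.7 in untreated 3KR samples. The groups were far apart, and the log2 fold change was -1.79 ± 0.14 (adjusted p = 1.25e-10) without and -1.57 ± 0.13 (adjusted p = 6.5e-10) after NCS. Kcnn4, the intermediate-conductance calcium-activated channel of fibroblasts and the most abundant of its family, had 209 to 304 and 270.4 to 349 normalized counts in untreated wild-type and 3KR samples, which overlapped (log2 fold change 0.21 ± 0.12, adjusted p = 0.158). Kcnn1, the small-conductance SK1, was higher by 0.30 ± 0.11 without treatment (adjusted p = 0.0309), a call lost without any 1 of 3 samples (adjusted p of 0.0531 to 0.216). After NCS its change between genotypes was 0.25 (adjusted p = 0.112).

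To see how potassium channel genes responded to DNA breaks, NCS-treated and untreated MEFs were compared within each genotype. In wild-type MEFs, 3 members rose and 6 fell, beside 26.7% of all tested genes called, 14.3% higher and 12.4% lower. In 3KR MEFs, 7 rose and 4 fell, beside 30.8% of all tested genes, 15.8% higher and 15% lower. Called members thus made up 16.7% and 20.4% of those tested, smaller shares than among all tested genes, and the medians over all tested members were -0.02 and -0.07 log2, beside 0.01 and 0.00 for all tested genes. Without wild-type sample 3 in both treatments, 2 members rose and 5 fell in wild-type MEFs. The 3 members that rose in wild-type MEFs (Kcnj4, Kcnj15 and Kcnf1) were among the 7 that rose in 3KR MEFs, that is 100% and 42.9% of the lists, and 3 that fell (Kcnn1, Kcnq5 and Kcnh2) were shared, 50% and 75%. Here too the shared part over all tested genes is not given.

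Of the members that rose in both genotypes, Kcnj4 had the largest increase in each. Its normalized counts were 57.2, 33.5 and 45.5 before and 128, 159 and 203 after NCS in wild-type MEFs, and 23.2, 27.0 and 20.0 before and 91.1, 56.0 and 87.9 after NCS in 3KR MEFs. Every treated sample lay above every untreated one of its genotype, and the log2 fold change was 1.82 ± 0.21 (adjusted p = 4.76e-07) in wild-type, 3.54-fold, and 1.76 ± 0.26 (adjusted p = 1.4e-05) in 3KR MEFs. The 250 bases before the RefSeq start of Kcnj4, shown as the upstream sequence of a member that rose in both genotypes, held no match to the E2F or p53 motifs.
Kcnj4, chr15:79505242-79505491, minus strand: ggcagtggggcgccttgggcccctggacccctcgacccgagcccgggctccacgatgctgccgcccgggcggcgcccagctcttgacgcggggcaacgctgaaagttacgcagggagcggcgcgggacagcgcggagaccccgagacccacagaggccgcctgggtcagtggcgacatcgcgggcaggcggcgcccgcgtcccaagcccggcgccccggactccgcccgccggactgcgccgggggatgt
Of the 7 members that rose in either genotype, 5 had a window and none of these held a match to either motif. Of the 7 that fell, 5 had a window and 2 of these, Kcnab1 and Kcnn1, held a p53 match.

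Kcnj15 rose by smaller steps. It went from 564, 562 and 611 to 777, 796 and 813 normalized counts in wild-type MEFs (log2 fold change 0.46 ± 0.07, adjusted p = 1.91e-05) and from 1210, 1156 and 1025 to 1512, 1538 and 1352 in 3KR MEFs (0.38 ± 0.06, adjusted p = 3.58e-05). Kcnf1, the silent subunit Kv5.1, rose by 0.32 ± 0.11 in wild-type (adjusted p = 0.0434) and 0.41 ± 0.12 in 3KR MEFs (adjusted p = 0.00866). The wild-type call was kept in 5 of 13 alternatives and the 3KR call was lost without untreated sample 3 (adjusted p = 0.065) or NCS sample 1 (adjusted p = 0.0517). Kcnk6 rose in 3KR MEFs (568, 606 and 583 before, 731, 753 and 786 after NCS, log2 fold change 0.37 ± 0.08, adjusted p = 0.000829), with a change of 0.11 ± 0.08 in wild-type MEFs (adjusted p = 0.361) that passed the threshold without untreated sample 3 (0.23, adjusted p = 0.0251). Kcna1 rose in 3KR MEFs by 0.47 ± 0.13 (adjusted p = 0.01), a call lost without NCS sample 1 (adjusted p = 0.0583). In wild-type MEFs its change was 0.23 ± 0.09 (adjusted p = 0.0559), and 0.33 (adjusted p = 0.00817) without NCS sample 1.

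Kcnc1, the Kv3.1 gene, was near the lower limit of detection. It passed the filter only through NCS samples, with raw counts of up to 24 in wild-type and 10 in 3KR MEFs. The filter thus favours a call of an increase. It had 1.01, 2.08 and 1.82 normalized counts before and 10.1, 11.7 and 9.30 after NCS in 3KR MEFs, a fitted log2 fold change of 2.57 ± 0.73 (adjusted p = 0.00966). In wild-type MEFs it had 8.29, 9.13 and 1.03 before and 24.6, 13.8 and 7.96 after NCS, with a change of 1.27 ± 0.51 (adjusted p = 0.0714). The change passed the threshold with the replicate number within each genotype as a block (1.33, adjusted p = 0.0332) or without NCS sample 3 (1.58, adjusted p = 0.0288). Kcnh1 rose in 3KR MEFs by 0.40 ± 0.13 (adjusted p = 0.0268), against -0.04 ± 0.13 in wild-type MEFs (adjusted p = 0.872).

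**Figure D4:**
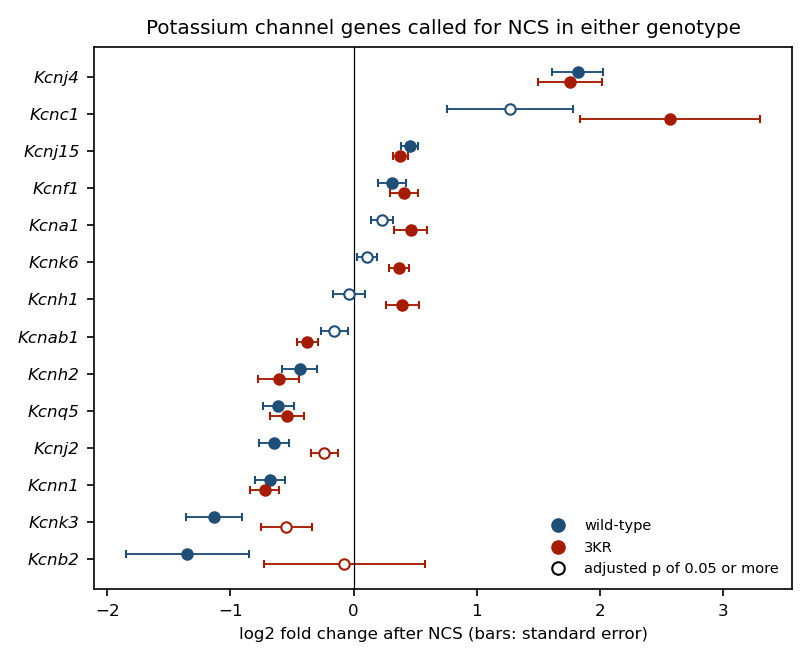
Log2 fold change after NCS in wild-type and 3KR MEFs for the 14 potassium channel genes called in either genotype (points, with standard errors; open points were not called). Kcnj4 lies at 1.82 and 1.76, and Kcnn1, Kcnq5 and Kcnh2 lie below 0 in both genotypes.

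The 7 members that fell after NCS in either genotype belonged to 7 families, and 3 of them fell in both. Kcnn1 went from 205, 235 and 254 to 139, 135 and 160.2 normalized counts in wild-type MEFs (log2 fold change -0.68 ± 0.12, adjusted p = 0.000186) and from 268, 329 and 260.0 to 176, 188 and 154 in 3KR MEFs (-0.72 ± 0.12, adjusted p = 4.47e-05). Kcnq5 went from 239, 237 and 261 to 155, 165 and 163 in wild-type MEFs (-0.61 ± 0.13, adjusted p = 0.000803) and fell by 0.54 in 3KR MEFs (adjusted p = 0.00431), a call lost without untreated 3KR sample 3 (adjusted p = 0.0601). Kcnh2 went from 212, 235 and 235 to 151, 169.6 and 184 in wild-type MEFs (-0.44 ± 0.14, adjusted p = 0.0252) and from 139, 132 and 164 to 67.9, 89.8 and 128 in 3KR MEFs (-0.61 ± 0.17, adjusted p = 0.00715). In each of these comparisons the treated and untreated samples did not overlap. The wild-type Kcnh2 call was lost without untreated sample 2 or NCS sample 1 or 2 (adjusted p of 0.0595 to 0.108), and the 3KR call without untreated sample 3 (adjusted p = 0.0513) or NCS sample 1 (adjusted p = 0.0725).

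Other decreases were called in 1 genotype. Kcnk3 went from 64.6, 65.9 and 70.4 to 34.8, 18.4 and 38.8 normalized counts in wild-type MEFs (log2 fold change -1.14 ± 0.23, adjusted p = 0.000546). In 3KR MEFs it went from 87.7, 72.8 and 68.2 to 47.6, 58.3 and 50.7 (-0.55 ± 0.21, adjusted p = 0.0511), which passed the threshold with the replicate block (-0.54, adjusted p = 0.0434). Kcnj2 went from 188, 213 and 180.1 to 136, 119 and 117 in wild-type MEFs (-0.65 ± 0.12, adjusted p = 0.000286), with a change of -0.24 ± 0.11 in 3KR MEFs (adjusted p = 0.108; without untreated sample 3, -0.32 and adjusted p = 0.0487). Kcnb2 fell in wild-type MEFs by 1.35 (adjusted p = 0.0483) on 12.4, 18.3 and 17.6 before and 9.22, 8.30 and 0.995 after NCS, a call kept in 3 of 11 alternatives. This gene passed the filter only through the untreated wild-type samples, so the filter favours this call. Kcnab1 fell in 3KR MEFs by 0.38 (adjusted p = 0.00178), where its level stayed above that of wild-type MEFs.

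**Figure D5:**
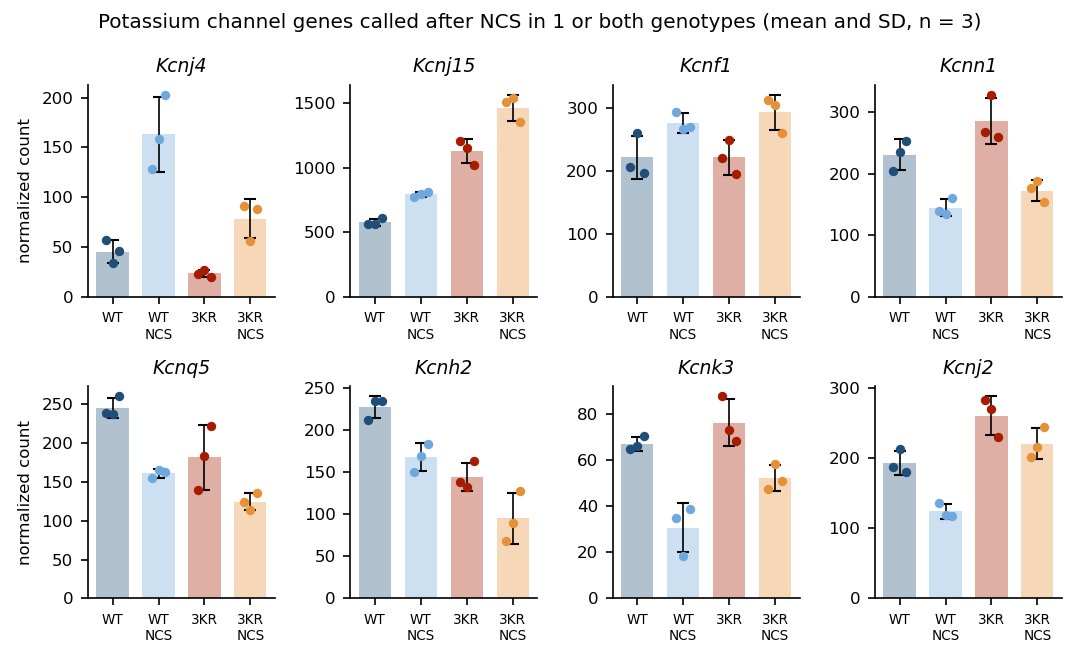
Normalized counts of 8 potassium channel genes called after NCS in 1 or both genotypes (points are samples, bars are means and error bars SD, n = 3, each axis from 0). Kcnj4 and Kcnj15 were higher in all treated samples of both genotypes, and Kcnn1, Kcnq5, Kcnh2 and Kcnk3 were lower in all treated samples of both.

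The difference between the genotypes in the response to NCS was tested as an interaction in the same fit. No member was called by edgeR (6 at an unadjusted p under 0.05) or by the Wald test of DESeq2 (6), beside 3.73% of all tested genes called by edgeR. The responses called in 1 genotype alone are therefore not shown to differ between genotypes. The lowest p belonged to Kcnh6, an ERG-family channel, at 1.65 ± 0.58 (adjusted p = 0.131). It had 19.1, 15.2 and 13.4 normalized counts before and 8.20, 6.45 and 9.95 after NCS in wild-type MEFs, and 6.05, 12.5 and 8.18 before and 11.1, 11.7 and 19.6 after NCS in 3KR MEFs. Kcng1 had a difference of 1.46 ± 0.55 (adjusted p = 0.163) and Kcnj2 of 0.41 ± 0.16 (adjusted p = 0.202).

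Other genes of potassium transport were examined from lists. Of 12 tested potassium pumps and cotransporters, 6 were lower and 1 higher in untreated 3KR MEFs, and 9 were lower after NCS. Among all tested genes 23.6% were lower in each comparison, and 22.1% and 22.9% were higher. The median log2 fold change of these 12 genes was -0.33 without and -0.24 after NCS. Atp1b2, a β subunit of the sodium-potassium pump, had 259, 255 and 258 normalized counts in untreated wild-type and 91.7, 96.7 and 89.1 in untreated 3KR samples, with log2 fold changes of -1.48 ± 0.12 (adjusted p = 5.53e-10) without and -1.58 ± 0.13 (adjusted p = 3.82e-10) after NCS. Of 4 tested HCN channels, relatives of Kv channels that carry pacemaker currents, Hcn4 was called lower in untreated 3KR MEFs (log2 fold change -2.06 ± 0.68, adjusted p = 0.0157). Hcn4 was near the lower limit of detection, with 8.12 to 9.11 normalized counts in untreated wild-type and 0 to 5.04 in untreated 3KR samples. After NCS it had 11.99 to 16.4 in wild-type and 1.167 to 4.136 in 3KR samples. It passed the filter only through wild-type samples, so the filter favours calls of a lower level in 3KR MEFs. Of 4 tested partner subunits with other symbols, 1 was higher and none lower in 3KR MEFs in either treatment.

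Of the 54 tested members, 20 were called in none of the 4 comparisons, among them Kcnd1, Kcnn4 and Kcnmb1. The 39 members that did not pass the filter had at most 18 counts in any sample, and 28 of them had counts in at least 3 samples. They were not tested, so neither a difference nor its absence is shown for them.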

How the data were processed

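RNA was measured in 12 samples of primary MEFs, 3 for each genotype and treatment, taken from the labels. For each sample the authors deposited raw counts of reads per Ensembl gene, neither normalized nor filtered. The submitters' processing notes name TopHat, HTSeq, DESeq and mm9, without versions. The strand setting of the counting is not given in the sources used here. Symbols, exon lengths and gene order came from GENCODE M21 (GRCm38). It matched 32919 of the 37991 identifiers, with 99.4% or more of each sample's counts. Promoters were read from RefSeq on GRCm38.p6, and gene coordinates of the other build were not used.

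Genes were filtered with filterByExpr and tested, two-sided, in R 4.3.3 with edgeR 4.0.16 (TMM scaling, glmQLFit and glmQLFTest). All 12 samples entered 1 fit with a coefficient for each group. The common biological coefficient of variation was 3.95%. To obtain normalized counts, the deposited values were scaled by DESeq2 1.42.0 size factors, and standard errors were derived from the F statistic. The members, the lists and the rule for named genes were chosen with earlier results of these data known. The rule takes the 6 members with the highest level per kb, those called with a change of at least 1 log2 between genotypes, the 5 lowest p per direction for NCS in each genotype and the 3 lowest p for the difference in response, which gave 32 members. Kcna3, Kcna4, Kcnab2, Kcnh1, Kcnk1, Kcnmb1 and Kcnn4 were named outside it after their values were seen, and so could genes of the lists that were called with a change of at least 1 log2 between genotypes.

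Same-numbered samples without and with NCS moved together around their group means in wild-type MEFs (correlations over 9602 genes of 0.267, 0.234 and 0.468). In 3KR MEFs they did not (0.001 to 0.05). Wild-type sample 3 lay apart from the others in both treatments, and deviations from a group mean cancel out. That sample by itself can therefore make all 3 wild-type correlations positive. The correlations link the wild-type samples numbered 3 and cannot decide whether the other wild-type samples pair by number. Alternatives were another normalization, the Wald test of DESeq2, other filters, only the compared samples, a replicate block and leaving out samples. The block was the replicate number for the genotype comparisons, and the number within each genotype for the responses to NCS and their difference. The omission of wild-type sample 3 in both treatments was added after seeing the data. The scripts were tested on simulated data. Some results are not reported here.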

Additional observations from a re-analysis of the deposited data

How the results depend on the processing

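The numbers of potassium channel genes called ranged over all alternatives from 24 to 31 between untreated genotypes, 21 to 28 between genotypes after NCS, 6 to 10 for the wild-type response to NCS and 7 to 13 for the 3KR response. They were 0 throughout for the difference in response. Leaving out 1 sample gave 7 to 13 calls for NCS in 3KR MEFs, against 11 with all samples. The lowest of these was without 3KR NCS sample 1, and the cause was not tested. Requiring at least 10 counts in every sample left 33 members tested and gave the lowest counts between genotypes, 24 and 21. Without wild-type sample 3 in both treatments the counts were 31, 26 and 7. A fit that blocks on the replicate number, shared by both genotypes, gave 30 and 26 between genotypes. For the responses to NCS the block was the replicate number within each genotype. It gave 10 for the wild-type response and 13 for the 3KR response, where Kcnk2 (adjusted p = 0.0195) and Kcnk3 (adjusted p = 0.0434) were added. Among the 32 members taken by the naming rule, the blocks changed no other call than these and that of Kcnc1 in wild-type MEFs. The members named outside the rule were not refitted one by one. Of 69 called values of the 32 members, 53 kept their call under every alternative run, 16 lost it under at least 1, and 0 changed direction. Of 256 group means of normalized counts, 2 moved by more than 1 SD with another scaling, and the largest ratio was 1.03. Low counts, of at most 18 per sample for Kcnb2, 24 for Kcnc1, 34 for Kcng1 and 23 for Kcnh6, limit the precision of their changes.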
